A study of Equus caballus with 45 samples.

Results

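The effect of culture medium from resting mesenchymal stromal cells (MSC) was examined in 3 kinds of equine joint cells that had been given inflammatory cytokines. In each of chondrocytes, synoviocytes and monocyte-derived macrophages, the 3 libraries from cells given IL-1β, TNF-α and MSC conditioned medium (MSC-CM) of unstimulated bone marrow MSC were set against the single library from cells given the cytokines without any MSC medium. These are 12 of the 45 libraries of the study (9 with resting MSC-CM and 3 with cytokines only), chosen by their labels. The libraries with MSC-CM carry the names AG1, ORC and PC, 1 of each per cell type, which are taken here as the MSC donors. The study's own MSC libraries are named 92, 99 and PC, so that only PC is found in both sets. The labels of the cytokines-only and no-addition libraries also hold such a name (ORC or PC), although their sample descriptions name no donor, and that name was not used. Each joint cell type came from 1 horse, the joint cells were primary cells expanded or differentiated in culture, and a chondrocyte, synoviocyte or macrophage library is 1 treated culture, so that the 3 libraries of a group differ in the MSC donor and in nothing else that the labels give. MSC-CM was mixed as 1 part in 3 parts of the cells' own medium, the cells were kept for 24 h with it, washed, and lysed after another 24 h. The labels give each cytokine at 20 ng/mL for synoviocytes and at 10 ng/mL for macrophages, whereas the study's methods give one dose for all. By these descriptions the cytokines-only cells received no medium from MSC, so an effect of MSC products cannot be told apart from that of replacing part of the fresh medium. A further library per cell type, from cells with no addition, and 6 libraries with medium of MSC activated by poly I:C or cGAMP are used below as reference levels only.

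IL-1β and TNF-α act on joint cells through NF-κB, which switches on chemokines, prostaglandin synthesis and matrix-degrading metalloproteinases, and in cartilage they lower the synthesis of aggrecan and other matrix proteins. MSC release growth factors, prostaglandins and cytokine antagonists, and their medium is used to ask whether these soluble factors alter such a response. Macrophages meet the same cytokines in the inflamed synovium and also make them.

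The 12 libraries held 23525704 to 40403096 counts over 20881 listed genes. Levels are given as counts per 1e+06 (CPM), on which scale 3 counts, taken as the floor, come to 0.0742 to 0.130. Floors cover counting error only. Macrophage libraries carried all 14 of the listed macrophage markers at 1 CPM or more. The chondrocyte libraries held no counts of COL9A1 and SNORC, at most 0.10 CPM of COL2A1 and 10236 to 24281 CPM of COL1A1. Of 10 chondrocyte markers 4 were at 1 CPM or more (ACAN, SOX9, COL11A1 and COMP). The label thus rests on a part of the cartilage markers, and synoviocytes also had 4 of the 10 at that level. Their COL11A1 was at 177 to 195 CPM, against 118 to 492 in chondrocytes. Their SOX9 was at 3.73 to 6.69 CPM against 8.86 to 66.2. ACAN was at 0.465 to 0.932 CPM in synoviocytes against 6.06 to 20.6, and COMP at 0.537 to 1.90 against 15.97 to 28.8.

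Some libraries stood apart from the rest of their group. In chondrocytes, the library with ORC medium was more than 2-fold from the AG1 and PC libraries in 355 and 394 of 9952 genes at 5 CPM or more, while AG1 and PC were that far apart in none. The same library was 2-fold from the cytokines-only library in 475 genes, against 6 for AG1 and 4 for PC, and 2-fold from the library with no addition in 457. In synoviocytes the ORC library was again the farthest from cytokines only (86 of 9939 genes, against 0 for AG1 and 1 for PC). In macrophages it was the AG1 library (286 of 9725 genes, against 30 for ORC and 49 for PC). Values are therefore given for each library, always in the order AG1, ORC and PC, and the chondrocyte results also without the ORC library. A cytokine response of the listed genes was plain in chondrocytes and synoviocytes and hardly visible in macrophages, with 1 library on each side. Over the cytokines and chemokines of the IL-1 and TNF response, the median difference between cytokines only and no addition was taken on the log2 scale. It was 4.10 over 14 genes in chondrocytes, 2.37 over 11 in synoviocytes and −0.20 over 19 in macrophages. The genes were kept for 5 CPM or more in the cytokines-only library or on average with MSC-CM. Their level with no addition played no part, which favours a rise, so the positive medians may be too large. In macrophages the cytokines-only and no-addition libraries were 2-fold apart in 5 genes only. Whether the macrophages did not respond to the cytokines or a label of these libraries is wrong was not tested, so each macrophage comparison below is one with the library labelled cytokines only.

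A gene was called outside the span where the cytokines-only library lay below all 3 resting MSC-CM libraries (written as higher with MSC-CM) or above all 3 (lower with MSC-CM). The distance to the nearest of the 3, on log2(CPM + 1), is the gap. In chondrocytes 3510 of 13650 genes were outside as higher with MSC-CM (25.7%) and 3595 as lower (26.3%). In synoviocytes the counts were 3449 (25%) and 3464 (25.1%) of 13791, and in macrophages 3294 (23.2%) and 3378 (23.8%) of 14183. A single library that varied like the other 3 would be the lowest for about 25% of genes and the highest for about 25%. The shares seen are near that, and they are the background for every count of listed genes below. Wide gaps were few. Among genes at 5 CPM or more, a gap of 2-fold was reached by 1 gene in chondrocytes (0.01%, lower with MSC-CM), by 0 in synoviocytes and by 5 in macrophages (4 higher, 0.0411%, and 1 lower, 0.0103%). With a gap of 1.5-fold, a limit added after the data were seen, the numbers were 19 higher (0.191%) and 6 lower (0.0603%) in chondrocytes, 1 (0.0101%) and 3 (0.0302%) in synoviocytes and 24 (0.247%) and 18 (0.185%) in macrophages. The genes nearest to the 2-fold limit were IL1A with a gap of 2.07-fold past it and EGR1 with 1.93-fold short of it in chondrocytes, and MYOZ1 with 2.10-fold and P2RY13 with 1.99-fold in macrophages, while in synoviocytes the widest gap was 1.67-fold (TCIM).

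In the quasi-likelihood test of edgeR, with p-values adjusted by Benjamini and Hochberg's method, 0 genes had an adjusted p under 0.05 in any of the 3 cell types, the smallest being 0.985 in chondrocytes, 0.999 in synoviocytes and 0.9996 in macrophages. At an unadjusted p under 0.05 there were 244 genes in chondrocytes (1.79%), 533 in synoviocytes (3.86%) and 352 in macrophages (2.48%), and DESeq2 gave 254, 308 and 284. After adjustment DESeq2 gave 0 genes in chondrocytes and synoviocytes and 3 in macrophages (MMP1, COL1A1 and RUFY4, 0.0212%). By the limits in the study's methods, an unadjusted p of 0.05 or less and a log2 fold change of 2 or more in either direction, there were 21 higher (0.154%) and 5 lower (0.0366%) genes in chondrocytes, 33 (0.239%) and 13 (0.0943%) in synoviocytes and 44 (0.31%) and 3 (0.0212%) in macrophages. Of all these, 5 were at 5 CPM or more, CCL26, DEFB1, IL31, PLAT and ENSECAG00000015092 in macrophages. The spread in these tests comes from the 3 MSC-CM libraries, and the lone cytokines-only library is assumed to vary like them. "Higher" and "lower" therefore describe these libraries, and log2 fold changes with their standard errors come from that test. In bulk samples, fewer cells of a type and less RNA per cell cannot be told apart.

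**Figure D1:**
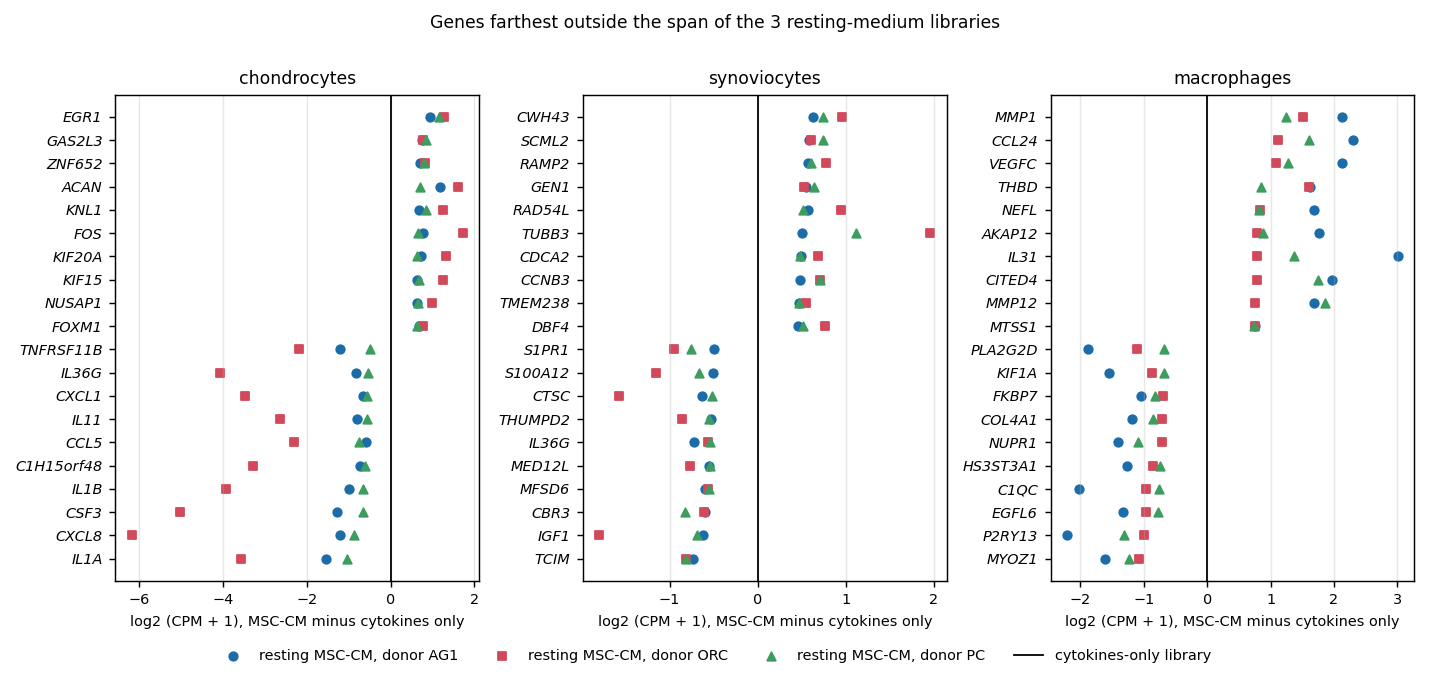
Points give, for each cell type, the difference in log2(CPM + 1) between each resting MSC-CM library (colour and shape by MSC donor) and the cytokines-only library (line at 0) for the 10 genes with the widest gap in each direction. In chondrocytes the ORC library lies far below the AG1 and PC libraries for most of the inflammatory genes that were lower with MSC-CM. An example is CXCL8 with 1412, 44.2 and 1770.2 CPM against 3274. For FOXM1 (18.9, 20.2 and 18.2 against 11.4) the donors differ less, while for the mitotic genes KIF20A, KIF15 and KNL1 the ORC library lies above AG1 and PC.

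In chondrocytes the genes farthest outside the span as lower with MSC-CM were cytokines, chemokines and their companions. IL1A, the alpha form of interleukin 1, was the one gene past a gap of 2-fold, with 3.09, 0 and 4.73 CPM after MSC-CM against 10.8 with cytokines only and 0 with no addition. CXCL8, the neutrophil-attracting interleukin 8, came next with 1412, 44.2 and 1770.2 CPM against 3274 (log2 fold change −1.61 ± 1.52), where the library with no addition had 3.03. By the choice of the genes all 3 MSC-CM libraries were below the cytokines-only library, and for both the ORC library by far the most. CSF3, the granulocyte colony-stimulating factor, was at 61.02, 3.57 and 93.7 CPM against 149. IL1B, the other form of interleukin 1, was at 6.68, 0 and 8.67 CPM against 14.2, with 0 counts in the ORC library. The neutrophil chemokine CXCL1 had 1726, 241 and 1834 CPM against 2712, the T cell chemokine CCL5 had 23.5, 6.44 and 20.7 against 35.6, and IL11, a cytokine of the IL-6 family, had 907, 255 and 1069 against 1594. For these 3 genes the AG1 and PC libraries stayed nearer to the cytokines-only level than the ORC library did. IL36G, an interleukin 1 relative, was at 49.3, 4.26 and 60.3 CPM against 88.2, and TNFRSF11B (osteoprotegerin), the decoy receptor for RANKL, at 21.4, 10.5 and 35.99 against 51.3. C1H15orf48, a small mitochondrial protein gene, was last of the 10 with 11.2, 1.09 and 12.3 CPM against 19.3.

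The other inflammatory lists of chondrocytes lay partly on the same side. Of 21 measured cytokines and chemokines of the IL-1 and TNF response, 16 were outside as lower with MSC-CM and 1 as higher, with a median log2 fold change of −1.003 where the median over all genes was 0.01. Of 24 NF-κB subunits and feedback genes, 17 were lower and 1 higher (median −0.32). PTGS2, which encodes cyclooxygenase 2, was at 2086, 171 and 2674 CPM against 3525, and IL6 at 3170.3, 881 and 3417 against 4535. The collagenase MMP1 had 12363, 3095 and 14099 CPM against 17672 and MMP12, a macrophage-type elastase, 7963, 2867 and 8813 against 12006. Both enzymes and both mediators were below the cytokines-only level in each of the 3 libraries, and all 4 remained far above the no-addition levels of 5.61 CPM for PTGS2, 198 for IL6, 52.3 for MMP1 and 102 for MMP12. Lists of other inflammatory genes did not lean as clearly. The adhesion and innate response list was lower in 7 of 19 and higher in 4, and its median went from −0.26 to 0.015 without the ORC library, where NOS2 and TNFAIP6 had an edgeR adjusted p under 0.05 as lower and CFB and CHI3L1 as higher. Prostaglandin E2 pathway genes were lower in 5 of 12 and higher in 3 (median −0.05). Matrix-degrading enzymes were lower in 7 of 23 and higher in 6 (−0.08, and 0.031 without ORC), with MMP1 and MMP12 as lower and ADAM12 and ADAMTS12 as higher in the test without ORC. CFB, CHI3L1 and ADAM12 were named after their values were seen. The NF-κB target IER3 was at 904, 135 and 968 CPM against 1335. The size of these differences differed by donor. Over the 14 cytokine and chemokine genes at 5 CPM or more, the median difference from cytokines only was −0.69 with AG1 medium, −2.50 with ORC and −0.53 with PC on the log2(CPM + 1) scale, and 13 of the 14 were lower with each donor.

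The 10 genes with the widest gaps as higher with MSC-CM in chondrocytes included 2 immediate early genes and several mitotic ones. EGR1, a transcription factor that growth factors induce within minutes, had the widest gap with 5.38, 7.01 and 6.30 CPM against 2.30 (log2 fold change 1.43 ± 0.30), and FOS, another immediate early gene, was at 5.19, 11.02 and 4.76 against 2.65. The immediate early list as a whole was higher in 10 of 33 and lower in 7 (median 0.07), near the background. ACAN, the aggrecan core protein of cartilage, was at 15.02, 20.6 and 10.4 CPM against 6.06 (1.34 ± 0.42). The 3 MSC-CM libraries were all above cytokines only for ACAN, by its choice, and all far below the 96.7 CPM with no addition. GAS2L3, a cytoskeletal linker of dividing cells, had 12.9, 13.2 and 13.9 CPM against 7.28. KNL1, a kinetochore scaffold, had 44.3, 66.8 and 49.9 against 27.6. For both, as for all 10 by their choice, no MSC-CM library came down to the cytokines-only level. The mitotic kinesins KIF20A, with 105, 160.0 and 98.5 CPM against 62.9, and KIF15, with 14.7, 23.1 and 15.04 against 9.11, lay on the same side. NUSAP1, a spindle protein, was at 62.1, 79.8 and 63.1 CPM against 39.8, and FOXM1, the transcription factor of the G2 and M phases, at 18.9, 20.2 and 18.2 against 11.4. ZNF652, a zinc finger repressor, had 10.1, 11.1 and 10.9 CPM against 5.83. Of these 10 genes, FOXM1, GAS2L3 and ZNF652 had the least spread among donors.

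Of 73 measured genes of DNA replication and mitosis, 60 were outside the span as higher with MSC-CM in chondrocytes and 0 as lower (median log2 fold change 0.53), and 29 of the 73 had an unadjusted p under 0.05. Their median difference was 0.31 with AG1 medium, 0.68 with ORC and 0.35 with PC on the log2(CPM + 1) scale over 71 genes at 5 CPM or more, of which 61, 69 and 68 were higher. Against all 9 libraries with resting or activated MSC medium, 48 of the 73 were still outside, where 12.4% of all genes were. The collagens and other matrix of mesenchymal cells showed 29 of 40 as higher and 0 as lower (median 0.40). Beside them, 10 summed fibroblast markers, COL1A1 and COL3A1 included, were at 59977 to 85651 CPM against 52018 with cytokines only, and the part of a shift in cell make-up was not tested. COL5A1, a collagen of thin fibrils, was at 3527, 6292 and 3401 CPM against 2606, COL14A1, a fibril-associated collagen, at 645, 675 and 677 against 482, and COL1A1 at 13423, 24281 and 12538 against 10236. The contractile and actin genes were higher in 12 of 22 and lower in 1 (median 0.35), with SYNPO2, an actin-binding protein of smooth muscle, at 26.1, 48.4 and 25.97 CPM against 16.8. COL11A1 and ADAMTS12, a fibril collagen of cartilage and a metalloproteinase, were highest in the ORC library. COL11A1 was at 168, 492 and 150.5 CPM against 118, and ADAMTS12 at 33.96, 116 and 40.9 against 23.9. CEMIP, which breaks down hyaluronan, was at 2234, 2088 and 1966 CPM against 1452. The hyaluronan synthase HAS1 was near the floor in every chondrocyte library (0.320, 0.0811 and 0.230 CPM against 0.350).

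Some groups of metabolic and stress genes were more often lower than higher in chondrocytes. Genes of the unfolded protein response were lower in 15 of 21 and higher in 3, cholesterol synthesis genes lower in 14 of 24 and higher in 1, antioxidant genes lower in 13 of 22 and higher in 2, and respiratory chain subunits lower in 16 of 33 and higher in 0. Their median log2 fold changes were −0.17, −0.18, −0.25 and −0.09, and without the ORC library −0.12, −0.071, −0.18 and −0.12. Among them FTH1, the ferritin heavy chain, was at 27.2, 17.7 and 25.97 CPM against 36.8, FDPS, an enzyme of the mevalonate pathway, at 118, 87.8 and 117 against 140.1, and the secreted chaperone MANF at 118, 110.4 and 120.2 against 144.

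Without the ORC library, the same test in chondrocytes gave 282 of 13422 genes an adjusted p under 0.05, 223 of them higher with MSC-CM (1.66%) and 59 lower (0.44%). In this fit the spread comes from the AG1 and PC libraries alone, which are nearly alike, and it is still set against 1 culture. Leaving out AG1 or PC gave 0 genes. CXCL8 then had a log2 fold change of −1.04 ± 0.08 (edgeR adjusted p 4.56e-37), PTGS2 of −0.57 ± 0.08, IL1A of −1.48 ± 0.21, IL6 of −0.46 ± 0.08 and MMP1 of −0.42 ± 0.07. On the other side ACAN had 1.08 ± 0.18, KIF20A 0.70 ± 0.11 and COL12A1, a fibril-associated collagen, 0.49 ± 0.08. These 8 genes were picked for their roles among the 282 after the values were seen. Of the cell cycle list 28 of 73 had an adjusted p under 0.05 as higher and 0 as lower, and of the fibroblast matrix 14 of 40 as higher and 0 as lower. The cytokine and chemokine list had 12 of 21 as lower and 0 as higher, namely CCL5, CCL20, CSF2, CSF3, CXCL1, CXCL6, CXCL8, IL1A, IL1B, IL6, IL11 and LIF. Without the ORC library the median log2 fold change was −0.60 for this list, −0.11 for the NF-κB list, 0.36 for the cell cycle, 0.24 for the fibroblast matrix and 0.08 for the contractile genes, so that all 5 kept their sign and were smaller.

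Differences in synoviocytes were small, with a median absolute log2 fold change of 0.10 over genes at 5 CPM or more, where chondrocytes and macrophages had 0.14 each. The widest gap among the genes lower with MSC-CM was that of TCIM, a regulator of Wnt signalling, with 5.92, 5.58 and 5.53 CPM against 10.5 and 3.44 with no addition (log2 fold change −0.89 ± 0.19). IGF1, the insulin-like growth factor, was at 3.34, 0.930 and 3.17 CPM against 5.70, and the carbonyl reductase CBR3 at 3.50, 3.47 and 2.85 against 5.81. All 3 MSC-CM libraries were below cytokines only by the choice of the genes, and for IGF1 the ORC library lay lowest. Of the others, MFSD6 (a membrane transporter-like protein) was at 6.17, 6.33 and 6.37 CPM against 9.83 and MED12L (a Mediator subunit) at 6.78, 5.72 and 6.86 against 10.5. IL36G was at 5.63, 6.40 and 6.54 against 9.98, where cells with no addition had 0.316. The 3 donors were close to each other for these 3 genes. The lysosomal protease CTSC had 4.02, 1.61 and 4.42 CPM against 6.80, the calcium-binding alarmin S100A12 12.9, 7.91 and 11.5 against 18.8, and the sphingosine phosphate receptor S1PR1 16.7, 11.9 and 13.8 against 23.97. THUMPD2, a methyltransferase, was at 3.76, 2.79 and 3.69 CPM against 5.88.

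The 10 genes with the widest gaps as higher with MSC-CM in synoviocytes were of several kinds. CWH43, which remodels lipid anchors, had the widest gap with 7.72, 9.94 and 8.42 CPM against 4.64, followed by the Polycomb protein SCML2 with 7.85, 8.01 and 8.87 against 4.93. GEN1, which resolves Holliday junctions, was at 7.62, 7.48 and 8.18 CPM against 4.90, and RAD54L, a recombination motor, at 8.01, 10.6 and 7.66 against 5.04. CDCA2, a mitotic chromosome protein, was at 31.9, 36.8 and 31.7 CPM against 22.4, CCNB3, a cyclin, at 9.20, 10.9 and 10.9 against 6.32, and DBF4, the activator of the CDC7 replication kinase, at 14.4, 17.9 and 14.9 against 10.2. By their choice, none of the 5 overlapped with cytokines only. TUBB3, a tubulin, was more spread, with 6.11, 18.5 and 9.85 CPM against 4.02. RAMP2, a co-receptor for adrenomedullin, was at 9.74, 11.4 and 9.99 CPM against 6.25, and TMEM238 at 10.6, 11.3 and 10.6 against 7.42.

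In synoviocytes 70 of the 73 cell cycle genes were outside the span as higher and 0 as lower, and 49 had an unadjusted p under 0.05 (median log2 fold change 0.38). The donors differed in size and not in direction, with median differences of 0.21 for AG1, 0.51 for ORC and 0.37 for PC over 71 genes at 5 CPM or more. Against all 9 libraries with MSC medium 2 of the 73 were outside as higher, and 0 as lower, where 6.21% of all genes were higher and 6.87% lower. Of the 66 ribosomal protein genes 47 were higher and 1 lower, with a median of 0.10 (0.053 without ORC), and of 29 targets of the amino acid response 19 were higher and 3 lower (0.22). PHGDH, the first enzyme of serine synthesis, was at 43.8, 57.3 and 45.2 CPM against 35.3, and the amino acid transporter SLC7A5 at 169, 195 and 162 against 132. Cytokines and chemokines were lower in 14 of 21 and higher in 4 (median −0.32), and NF-κB subunits and feedback genes lower in 14 of 24 and higher in 1 (−0.20). CXCL1 was at 362, 329.6 and 364 CPM against 506, PTGS2 at 432, 342 and 484 against 654, and MMP13, the main collagenase of cartilage breakdown, at 486, 179.9 and 467 against 681. The 3 MSC-CM libraries were below cytokines only for each of the 3. CXCL1 was named for its gap, PTGS2 and MMP13 as joint genes. SOD2, the mitochondrial superoxide dismutase that NF-κB induces, was at 1059, 548 and 991 CPM against 1399, and the NF-κB inhibitor NFKBIA at 64.7, 43.3 and 58.98 against 78.9. Without the ORC library 12 of 13554 genes had an edgeR adjusted p under 0.05. TUBB3 and KNTC1 were higher (0.0148%), and PTGS2, CXCL1, MMP13, SOD2, LIPG, SLC7A2, TCIM, S1PR1, SCARA5 and ARRDC3 were lower (0.0738%). KNTC1, SLC7A2, SCARA5 and ARRDC3 were named after their values were seen. The median of the cell cycle list was then 0.31. Without AG1 it was TUBB3 alone, and without PC 0 genes.

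The gaps past 2-fold lay mostly in macrophages. MMP1, the interstitial collagenase, was at 339, 219.7 and 182 CPM after MSC-CM against 76.5 with cytokines only and 74.5 with no addition (log2 fold change 1.69 ± 0.37, edgeR unadjusted p 0.00236). The chemokine CCL24, which attracts eosinophils, was at 39.05, 16.6 and 23.9 CPM against 7.17, and VEGFC, a growth factor of lymphatic vessels, at 14.3, 6.45 and 7.47 against 2.50. In all 3 genes the AG1 library was the highest, and by their choice no MSC-CM library reached down to the cytokines-only level. With no addition CCL24 was at 17.2 CPM, inside the range of the MSC-CM libraries. The fourth gene past 2-fold, ENSECAG00000015092, has no symbol in the table and was at 9.57, 3.42 and 3.55 CPM against 1.08. Like the others, it was highest with AG1 medium. THBD, the anticoagulant receptor thrombomodulin, was at 228, 226 and 133 CPM against 73.3, and MMP12, the macrophage elastase, at 576, 301 and 647 against 177. NEFL, a neurofilament subunit, was at 66.1, 36.04 and 35.8 CPM against 19.9, and AKAP12, a scaffold for protein kinase A, at 381, 193 and 204 against 111. Again by the choice of the genes, no MSC-CM library reached down to cytokines only. IL31, an itch-associated cytokine, was at 25.5, 4.68 and 7.52 CPM against 2.29 and the transcriptional co-activator CITED4 at 13.1, 5.15 and 11.04 against 2.58. MTSS1, which bends membranes, had the least spread of the 10, with 92.6, 92.7 and 91.7 CPM against 54.3. The library with no addition was below all 3 MSC-CM libraries for 8 of these 10 genes with a symbol, the exceptions being CCL24 and CITED4 (5.85 CPM).

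Genes lower with MSC-CM in macrophages included MYOZ1, a calcineurin-binding protein of muscle, as the one gene past 2-fold, with 3.54, 5.63 and 4.92 CPM against 12.9 and 12.8 with no addition. P2RY13, a receptor for ADP, was at 0.866, 3.34 and 2.47 CPM against 7.63, and C1QC, a chain of complement C1q, at 13.2, 28.5 and 33.2 against 56.9. PLA2G2D, a secreted phospholipase of resting myeloid cells, was at 63.8, 109 and 148 CPM against 237. The AG1 library was the lowest for each of these 4. EGFL6, a secreted matrix protein, was at 2.08, 2.95 and 3.52 CPM against 6.71, HS3ST3A1, a heparan sulfate sulfotransferase, at 3.93, 5.54 and 6.07 against 10.8, and NUPR1, a stress-induced nuclear protein, at 9.13, 15.3 and 11.6 against 25.8. The basement membrane collagen COL4A1 had 3.61, 5.41 and 4.84 CPM against 9.55, the chaperone FKBP7 2.15, 3.03 and 2.69 against 5.50, and the kinesin KIF1A 5.76, 9.88 and 11.3 against 18.8. For all 10 the library with no addition was also above the 3 MSC-CM libraries.

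In macrophages the inflammatory genes differed by the donor of the medium. Cytokines and chemokines were higher with MSC-CM in 7 of 23 and lower in 4 (median log2 fold change 0.49), and the donors differed in direction, with a median difference of 0.83 for AG1, 0.38 for ORC and −0.18 for PC over 19 genes. IL1B was at 411, 421 and 77.97 CPM against 102, and CXCL8 at 8740.3, 6765 and 3127 against 3937, both above cytokines only with AG1 and ORC medium and below it with PC medium. IL1RN, the interleukin 1 receptor antagonist, was at 335, 214 and 203 CPM against 154, above it in each library. Interferon-stimulated genes parted by donor as well. Over 50 genes the median difference was −0.67 with AG1 medium (46 lower), 0.27 with ORC (40 higher) and −0.18 with PC (34 lower). CXCL11, an interferon-induced chemokine, was below cytokines only with each donor (159, 491 and 349 CPM against 678), by its choice as a gene outside the span.

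Housekeeping groups of macrophages were mostly lower with MSC-CM. Of 33 respiratory chain subunits 28 were lower and 0 higher (median −0.25), of 66 ribosomal protein genes 35 were lower and 1 higher (−0.17), and of 21 antioxidant genes 15 were lower and 1 higher (−0.33). The ribosomal list differed by donor, with a median difference of −0.018 with AG1 medium (29 higher and 35 lower of 64 at 5 CPM or more), −0.20 with ORC and −0.33 with PC, and its median log2 fold change was −0.098 without PC. Lysosomal genes were lower in 16 of 29 and higher in 2. PRDX1, a peroxiredoxin, was at 1127, 1327 and 1199 CPM against 1859.9, and ATP5F1C, a subunit of the ATP synthase, at 187, 186 and 178 against 241. Growth factors were higher in 10 of 26 and lower in 1 (0.46). Over the 10 growth factor genes at 5 CPM or more the median was 0.25. VEGFA was at 9.002, 10.4 and 9.89 CPM against 5.63. Immediate early genes were higher in 14 of 34 and lower in 3 (0.31), with EGR3 at 7.62, 6.15 and 6.21 CPM against 4.002. ABCG1, a cholesterol exporter, was at 34.7, 37.5 and 33.3 CPM against 22.97.

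Some collagen and fibroblast genes were also higher in macrophages given MSC-CM, at low levels. COL1A1 was at 2.82, 4.25 and 2.12 CPM against 0.208 with cytokines only, where it rests on 5 counts, and 0.935 with no addition (log2 fold change 3.84 ± 0.68, edgeR unadjusted p 0.000703). Of 33 genes of the fibroblast matrix 17 were higher and 2 lower. The summed level of 10 fibroblast markers was 87.1, 90.2 and 91.9 CPM against 53.6 with cytokines only and 69.1 with no addition, most of it PDPN, a mucin-type glycoprotein that macrophages can also make (71.5, 78.7 and 83.2 CPM against 49.2). PDGFRA was at 0.161 CPM at most, and COL3A1, DCN, LUM and CDH11 were at 4.23, 2.60, 0.544 and 0.618 CPM in the AG1 library and lower in the others. FAP lay on the other side, with 0.173, 0.347 and 0.564 CPM against 0.959, and PDGFRB did not stand outside, with 0.866, 0.823 and 1.34 against 1.33. Whether RNA or cells from the MSC cultures reached the macrophages was not tested. Summed T cell markers in macrophages were 385 to 626 CPM with MSC-CM against 655 with cytokines only, and neutrophil markers 287 to 590 against 296. The part of such cells in the results was not tested.

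Without the ORC library 135 of 13976 genes had an edgeR adjusted p under 0.05 in macrophages, 88 as higher (0.63%) and 47 as lower (0.336%). Leaving out AG1, the library that stood apart, or PC gave 0 genes. Without AG1 the median log2 fold change was 0.23 for the cytokine list, 0.07 for the interferon-stimulated genes (−0.11 with all 3), −0.30 for the respiratory chain, −0.27 for ribosomal proteins, −0.23 for antioxidant genes and 0.23 for growth factors. Among the 135, MMP1 had a log2 fold change of 1.77 ± 0.29, MMP12 1.79 ± 0.31, VEGFC 2.12 ± 0.36 and the plasminogen activator PLAT 3.20 ± 0.36. DEFB1, a defensin, had 4.28 ± 0.44. On the lower side the scavenger receptor CD163 had −1.33 ± 0.27, C1QC −1.30 ± 0.25 and CD36, another scavenger receptor, −1.21 ± 0.26. PLAT, DEFB1, CD163 and CD36 were named after their values were seen. The ORC library left out here was the nearest to cytokines only, with 30 genes 2-fold away against 286 for AG1 and 49 for PC. With all 3 libraries the log2 fold change was 2.74 ± 1.02 for PLAT and 3.79 ± 1.47 for DEFB1. The ORC library had 3.03 CPM of PLAT against 2.04 with cytokines only, and 1.34 of DEFB1 against 0.625.

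Across the 3 cell types 302 of 12400 genes tested in each were outside the span as higher with MSC-CM in all 3 (2.44%) and 324 as lower in all 3 (2.61%). Some genes would lie so without any effect of the medium. With a level of 5 CPM or more in each, there were 223 (2.66% of 8395) and 261 (3.11%). Outside all 9 MSC-medium libraries in each cell type were 27 (0.218%) and 28 (0.226%), and 0 genes had a gap of 1.5-fold in each. In the fit of all 12 libraries, with a term for the cell type, 0 of 15795 genes had an edgeR adjusted p under 0.05 (smallest 0.945), and 682 had an unadjusted p under 0.05 (4.32%), 406 as higher (2.57%) and 276 as lower (1.75%). The test of a difference between cell types (the interaction of medium and cell type) gave 0 genes after adjustment and 279 at an unadjusted p under 0.05 (1.77%). Between chondrocytes and synoviocytes, 17.9% of the 12400 genes lay outside with a shared direction and 9.3% with opposite ones. For chondrocytes and macrophages the shares were 16% and 8.85%, and for synoviocytes and macrophages 10.9% and 12.6%.

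**Figure D2:**
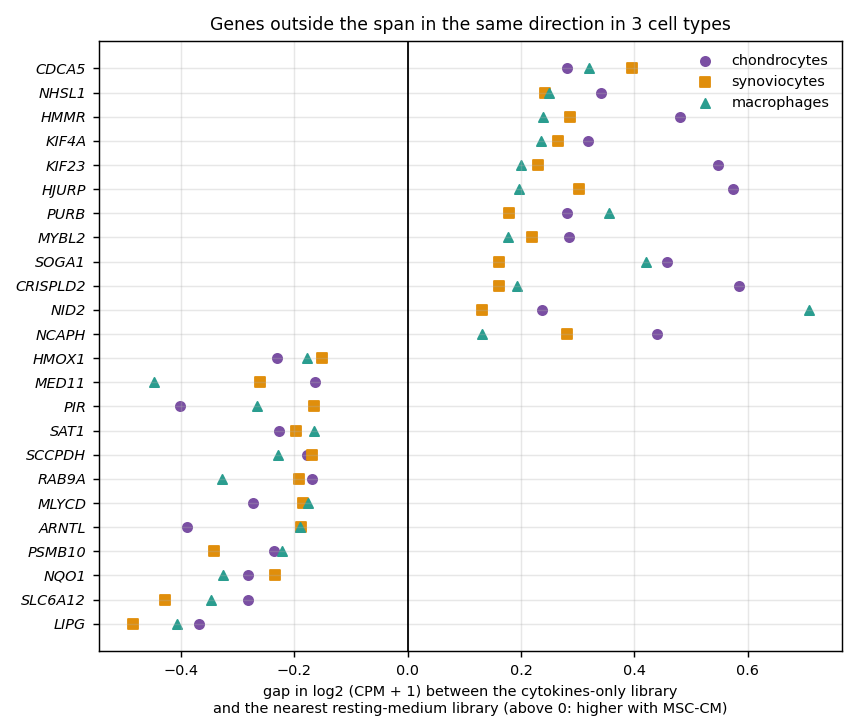
Each point is the gap, on log2(CPM + 1), between the cytokines-only library and the nearest resting MSC-CM library in 1 cell type, for the 12 genes per direction with the largest smallest gap. All gaps of a gene lie on one side of 0 by the choice of the genes, and the smallest ones run from 0.13 for NCAPH to 0.37 for LIPG.

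Mitotic genes led those alike as higher. CDCA5 (sororin), which holds sister chromatids together, had the largest smallest gap. It was at 7.46, 11.1 and 6.99 CPM against 5.58 in chondrocytes, at 9.94, 14.7 and 10.5 against 7.31 in synoviocytes and at 10.8, 11.8 and 11.4 against 8.46 in macrophages, with a log2 fold change of 0.57 ± 0.16 over the 12 libraries. HMMR, a hyaluronan receptor that also serves at the spindle, was at 32.5, 43.6 and 38.9 CPM against 23.1 in chondrocytes, at 50.2, 54.3 and 56.9 against 41.00 in synoviocytes and at 6.48, 7.06 and 7.36 against 5.34 in macrophages (0.51 ± 0.11). The cytokinesis kinesin KIF23 was at 73.7, 84.8 and 70.8 CPM against 48.2 in chondrocytes, at 102, 111 and 112 against 86.6 in synoviocytes and at 9.15, 10.4 and 10.02 against 7.84 in macrophages (0.44 ± 0.09). By the choice of these genes, no MSC-CM library fell below cytokines only. The chromosome motor KIF4A (0.43 ± 0.12), the centromere histone chaperone HJURP (0.52 ± 0.13), the condensin subunit NCAPH (0.40 ± 0.08) and the transcription factor MYBL2 (0.47 ± 0.19) are further genes of cell division. The rest were NHSL1, an actin regulator (0.44 ± 0.12), PURB, a single-strand binding protein (0.41 ± 0.10), SOGA1, a regulator of autophagy and microtubules (0.45 ± 0.10), CRISPLD2, a secreted protein that glucocorticoids induce (0.80 ± 0.29), and the basement membrane protein NID2 (0.46 ± 0.12). NID2 differed most in macrophages, with 70.7, 72.9 and 68.97 CPM against 41.9.

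Of the 73 cell cycle genes 14 were alike as higher in the 3 cell types (19.2%, where all genes had 2.44%) and 0 as lower, and 35 had an unadjusted p under 0.05 as higher in the fit of all 12 libraries against 0 as lower. In macrophages 15 of the 73 were higher and 20 lower, with a median of 0.01. Of 33 genes of the fibroblast matrix 5 were alike as higher (15.2%) and 0 as lower. In synoviocytes that list did not lean as a whole, with 12 of 40 genes higher and 7 lower (median −0.01). With ORC medium 13 of its 38 genes at 5 CPM or more were higher there and 25 lower. In macrophages 13 of its 33 genes reached 5 CPM.

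The 12 genes alike as lower with the largest smallest gaps were of several kinds. LIPG, the endothelial lipase, had the largest smallest gap, with 428, 72.2 and 632 CPM against 816 in chondrocytes, 84.3, 88.1 and 93.7 against 131 in synoviocytes and 61.8, 89.1 and 80.8 against 118 in macrophages (−0.78 ± 0.39 over the 12 libraries). SLC6A12, a transporter of betaine, was at 150.4, 95.2 and 173 CPM against 211 in chondrocytes, at 3.63, 3.83 and 3.90 against 5.59 in synoviocytes and at 3.02, 2.77 and 5.29 against 7.004 in macrophages (−0.68 ± 0.19). NQO1, a quinone reductase and a classical NRF2 target, was at 39.7, 23.95 and 46.9 CPM against 57.2 in chondrocytes, at 14.3, 12.98 and 14.8 against 17.6 in synoviocytes and at 13.3, 17.6 and 18.4 against 23.3 in macrophages (−0.49 ± 0.16). By the choice of the genes every MSC-CM library was below the cytokines-only library of its cell type. For these 3 genes the ORC library of chondrocytes was the lowest of its group. HMOX1, the heme oxygenase (−0.35 ± 0.19), and PIR, an iron-binding protein (−0.63 ± 0.26), are further genes that NRF2 controls. PSMB10 is an immunoproteasome subunit (−0.47 ± 0.10), ARNTL (BMAL1) the partner of CLOCK (−0.34 ± 0.08), MLYCD the malonyl-CoA decarboxylase (−0.35 ± 0.10), RAB9A a GTPase of late endosomes (−0.36 ± 0.12), SAT1 the polyamine acetyltransferase (−0.49 ± 0.20) and MED11 a Mediator subunit (−0.43 ± 0.11). SCCPDH, an oxidoreductase of lipid droplets, was the last of the 12 (−0.27 ± 0.07). Of 21 antioxidant genes 5 were alike as lower (23.8%, where all genes had 2.61%) and 0 as higher, and 8 had an unadjusted p under 0.05 as lower in the fit of all 12 libraries against 0 as higher. FTL, the ferritin light chain, was among them with −0.42 ± 0.14. In synoviocytes the antioxidant list leaned little, with 9 of 22 genes lower and 5 higher (median −0.07). With ORC medium and with PC medium, 10 of its 20 genes at 5 CPM or more were higher there and 10 lower.

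Of 20 genes chosen for their part in joint inflammation and matrix, MMP3 and PRG4 were not analysed here. PTGS2 and SOD2 were lower and COL1A1 higher in each of the 3 cell types. COL1A1 had log2 fold changes of 0.71 ± 0.48 in chondrocytes, 0.13 ± 0.16 in synoviocytes and 3.84 ± 0.68 in macrophages. For COL1A1 the exact two-sided permutation test of the labels within cell types gave p = 0.0156, the smallest value that the 64 arrangements allow, against 0.25 for PTGS2 and 0.109 for SOD2. COL1A1 was the only one of the 18 genes tested in this way to reach that value. COL2A1, at 0 CPM in each of these synoviocyte libraries, could not reach it because its arrangements there tie. For COL1A1 edgeR's adjusted p over the 12 libraries was 0.945. The permutation p-values were not adjusted for the 18 genes. Of all 12400 genes, 2.44% lay outside as higher in each of the 3 cell types, as COL1A1 did. Of the other genes, IL6 gave p = 0.266, CCL2 0.359, TNFAIP6 0.531 and TGFB1 0.75 by the same exact permutation test. The aggrecanases ADAMTS4 and ADAMTS5 lay inside the span in chondrocytes. ADAMTS4 was at 26.95, 19.7 and 27.6 CPM against 25.8, and ADAMTS5 at 149, 124 and 189 against 152. COL2A1 was too low to be tested in chondrocytes and synoviocytes.

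**Figure D3:**
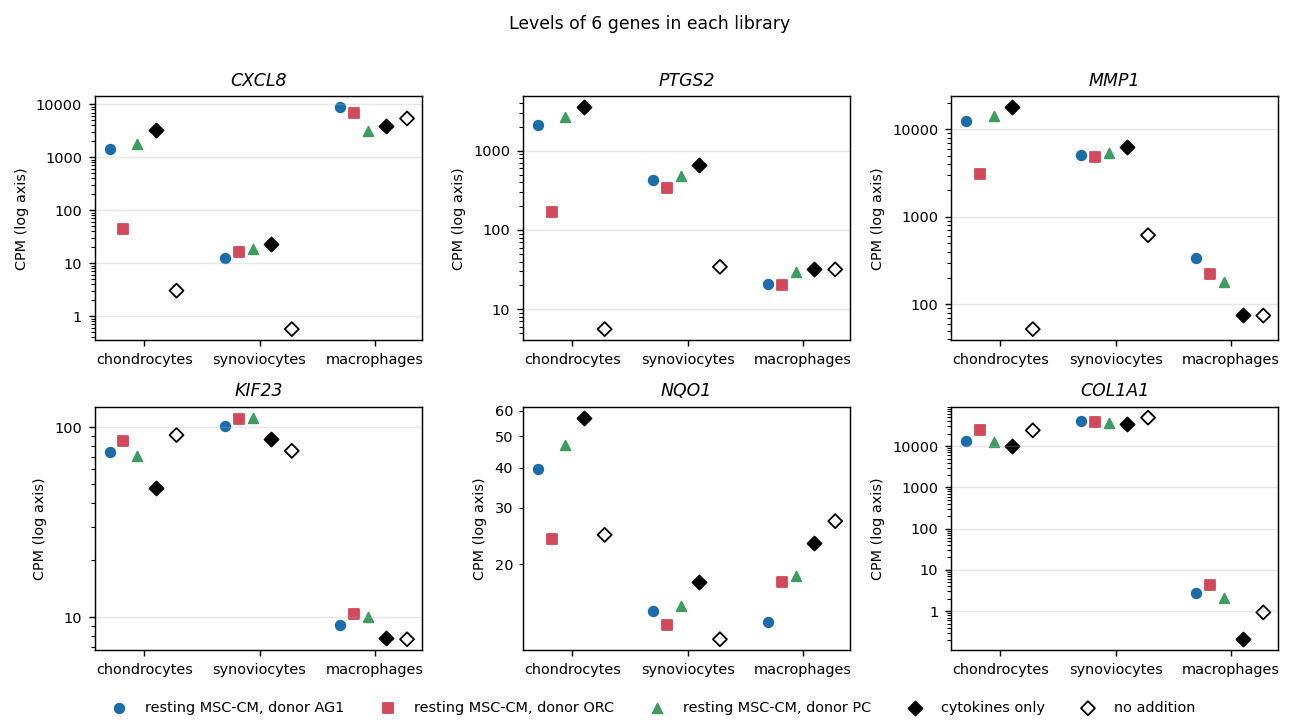
CPM on a log axis of CXCL8, PTGS2, MMP1, KIF23, NQO1 and COL1A1 in the 3 resting MSC-CM libraries, the cytokines-only library and the no-addition library of each cell type. MMP1 lies below cytokines only after MSC-CM in chondrocytes and synoviocytes and above it in macrophages (339, 219.7 and 182 CPM against 76.5), and KIF23 lies above it in all 3.

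Libraries with medium of the same MSC donor were compared between cell types. Over 9586 genes at 5 CPM or more in both, the deviations of a library from the mean of its 3 MSC-CM libraries correlated between chondrocytes and synoviocytes at Pearson's r = 0.28 for AG1, 0.24 for ORC and 0.32 for PC, where the values for different donors ran from −0.23 to −0.00198. Between synoviocytes and macrophages the same-donor values over 8525 genes were 0.07, 0.02 and 0.37, where different donors ran from −0.21 to 0.10. Between chondrocytes and macrophages the same-donor values over 8542 genes were 0.11, 0.02 and 0.19, where different donors ran from −0.20 to 0.07. These are correlations across genes, which are not independent, and deviations from a mean of 3 are negatively correlated among themselves by construction.

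**Figure D4:**
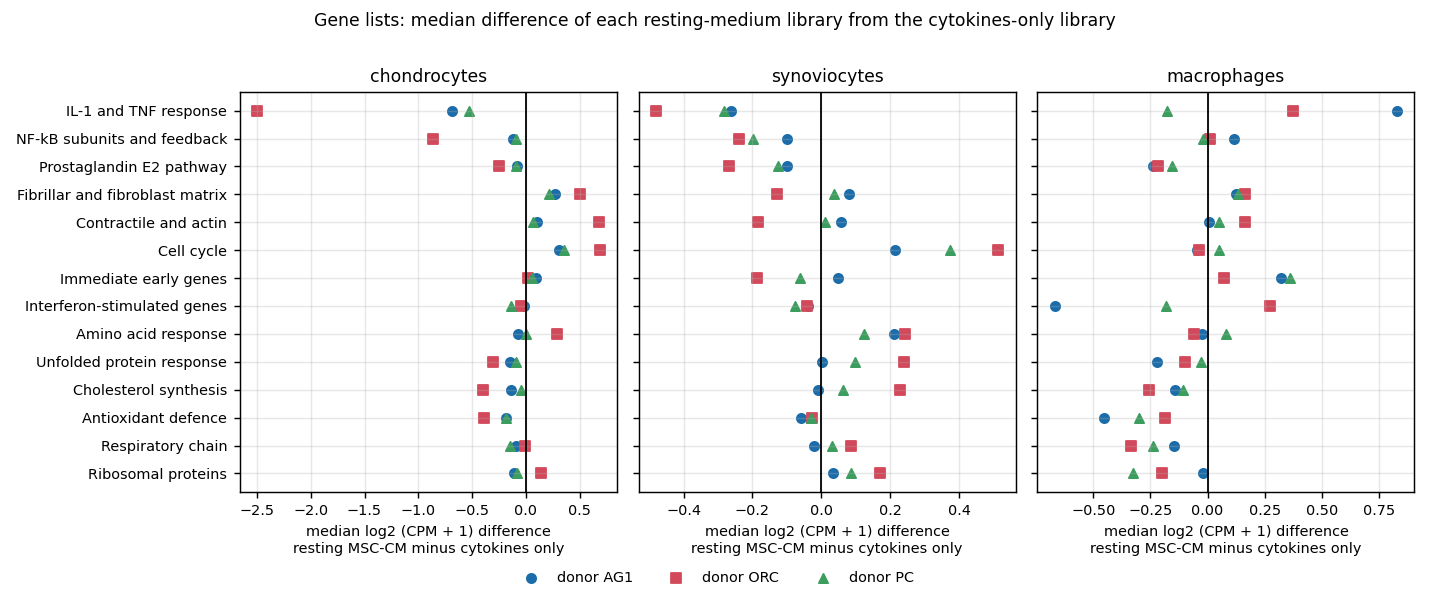
Each point is the median, over the genes of a list at 5 CPM or more, of the difference in log2(CPM + 1) between the resting MSC-CM library of 1 donor and the cytokines-only library of the same cell type (line at 0). Cell cycle genes lie above 0 for all donors in chondrocytes and synoviocytes, cytokine genes below 0 in both, and in macrophages the donors fall on different sides for the cytokine and interferon lists. The horizontal scale differs between panels.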

How the data were processed

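PolyA RNA of 45 libraries was sequenced. Per the study's methods and processing notes, the authors used Cutadapt 1.12 for trimming, STAR for alignment to the EquCab3.0 genome and HTSeq 0.11.0 for counting. They deposited whole-number counts per protein coding gene, in which the largest values (1e+06 or more) are rounded to 3 digits. Strandedness is not given in the sources used here, so overlapping genes may share reads. The members and gene lists were chosen with earlier results of these data known.

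From the deposited counts, genes with at least 10 counts over the libraries compared were tested with edgeR 4.0.16 (TMM scaling, quasi-likelihood, Benjamini-Hochberg) in R 4.3.3, per cell type with 3 libraries against 1, and over the 12 libraries with a term for cell type. The test of medium and cell type together was the interaction. CPM uses the TMM-scaled totals of the 11 libraries of a cell type, and gaps use log2(CPM + 1). Single genes over the 3 cell types had an exact two-sided permutation test over 64 arrangements. DESeq2 1.42.0, other pseudocounts, filters and limits, and leaving out each library were alternatives. Scripts were tested on simulated data.

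Named genes were the 10 per cell type and direction with the widest gap at 5 CPM or more. To these came the 12 per direction outside in all 3 cell types with the largest smallest gap. Each list gave the 2 widest members outside the span per cell type, and 20 joint genes were fixed by name. List members named in this way lie outside the span by their choice. Other names are said to be chosen after their values were seen. Depth of 23525704 to 40403096 counts limits low genes only. As each joint cell type came from 1 horse, p-values within a cell type measure the spread between MSC donors and wells. In the fit of all 12 libraries the spread also holds differences between cell types in the effect. There the cell types stand in as replicates of the cytokines-only condition, and medium of the same 3 MSC donors recurs in each.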

Additional observations from a re-analysis of the deposited data

Results flagged for a closer look

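Among the genes named for the widest gaps and the 20 joint genes, the 3 resting MSC-CM libraries of 4 genes lay above cytokines only in one cell type and below it in another, at 5 CPM or more and with a gap of at least 1.1-fold in both. Over all 12400 genes, 9.3%, 8.85% and 12.6% lay in opposite directions, with gaps of any size, in the 3 pairs of cell types. MMP1 differed by 2.53 on the log2 scale between macrophages (log2 fold change 1.69) and chondrocytes (−0.84), and the p for the interaction of medium and cell type over the 3 cell types was 0.0518 by edgeR (adjusted p 1). For MMP12 the difference between the same cell types was 2.39 (1.52 against −0.87, edgeR interaction p 0.0329, adjusted p 1). TNFAIP6, a hyaluronan-binding protein of inflamed joints, differed by 1.32 (0.54 against −0.78, edgeR interaction p 0.361, adjusted p 1). MED12L differed by 1.37 between macrophages (0.67) and synoviocytes (−0.69), with an edgeR interaction p of 0.0115 (adjusted p 1). None of the 4 passed the adjusted test.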

How the results depend on the processing

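Within a cell type no paired analysis was possible because each cell type has 1 cytokines-only library, described as without MSC-CM. Over the 3 cell types, a further fit gave each MSC donor, taken from the labels, its own term against cytokines only. The mean of the 3 donor terms gave 1 gene with an edgeR adjusted p under 0.05 (ENSECAG00000000339, log2 fold change −1.29, adjusted p 0.0400). The fit without donor terms gave 0, as did the mean of the 3 cell-type contrasts (smallest adjusted p 0.993).

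Counts moved with the limits set. Genes past 2-fold numbered 1 in chondrocytes, 2 with a pseudocount of 0.1 CPM, 0 past 3-fold, 25 past 1.5-fold (added after the data were seen) and 1 to 6 when a library was left out (4 without AG1, 6 without PC). In synoviocytes 0 became 4 past 1.5-fold and 0 to 1 when a library was left out (1 without AG1). In macrophages 5 became 0 past 3-fold, 42 past 1.5-fold and 4 to 34 when a library was left out (34 without ORC, 19 without PC). Genes with an edgeR adjusted p under 0.05 ran from 0 to 282 in chondrocytes, 0 to 12 in synoviocytes and 0 to 135 in macrophages when a library was left out, each highest without ORC, and DESeq2 gave 3 in macrophages. The 626 genes outside in the same direction in all 3 cell types became 0 with a gap of 1.5-fold in each, 55 against all 9 media and 1220 to 1408 without 1 donor, where a span of 2 libraries is narrower by construction.

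Leaving out 1 library turned the sign of 8 log2 fold changes that had not passed the test. Without 1 library ACAN ran from −0.22 to 0.28 and HAS1 from −0.10 to 0.82 in synoviocytes, and ADAMTS4 from −0.141 to 0.084 and ADAMTS5 from −0.153 to 0.156 in chondrocytes. In macrophages ADAMTS4 ran from −0.21 to 0.97, CCL2 from −0.097 to 0.217, COL2A1 from −1.57 to 0.22 and TGFB1 from −0.037 to 0.245. The cause was not tested. Of the values of named genes without 1 library, 88 passed the adjusted threshold that none passed with all libraries. With DESeq2's size factors and with a prior count of 2, in edgeR on all libraries, all 616 values of named genes kept their direction and their side of the threshold. The test of DESeq2 put MMP1 (adjusted p 0.0119), COL1A1 (0.0262) and RUFY4 (0.0320) under 0.05 in macrophages.

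With 1 cytokines-only culture per cell type, the spread between such cultures was not measured. Depth limits genes near the floor, such as COL1A1 in macrophages.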

Other observations

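Further groups of genes moved little or split by cell type. Of 10 MHC class II genes in macrophages 6 lay outside the span as lower with MSC-CM and 0 as higher (median log2 fold change −0.15), where 23.8% of all genes were lower. DRB, a class II beta chain, was at 602, 853 and 989.6 CPM against 1147 with cytokines only. Of 28 lysosomal genes measured in all 3 cell types 4 were lower in each (14.3%) and 0 higher. Of all genes, 2.61% were lower in each. As a whole the list hardly leaned in chondrocytes, with 5 of 28 higher and 9 lower (median log2 fold change 0.007). Its medians were −0.10 in synoviocytes and −0.13 in macrophages. In macrophages its median difference was −0.32 with AG1 medium, −0.04 with ORC and −0.10 with PC. The lipid handling list had 3 of 19 as lower in each. PDK4, a kinase that holds back pyruvate oxidation, was among them, with 1.54, 0.527 and 1.58 CPM against 1.85 in chondrocytes, 4.82, 2.97 and 4.56 against 5.92 in synoviocytes and 0.964, 1.30 and 1.24 against 2.29 in macrophages.

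Genes of the TGF-β and BMP response were higher in 15 of 36 and lower in 8 in chondrocytes, and higher in 6 and lower in 16 of 36 in synoviocytes, with medians of 0.09 and −0.10. Unfolded protein response genes also had medians of unlike sign, −0.17 in chondrocytes and 0.14 in synoviocytes, and so did cholesterol synthesis genes with −0.18 and 0.10. Without the ORC libraries these values were −0.12 and 0.054 for the first list and −0.071 and 0.019 for the second, and the TGF-β and BMP medians were 0.08 and −0.06. Without AG1 the TGF-β and BMP median of chondrocytes was 0.055. By edgeR's interaction test 0 of 15795 genes differed between cell types after adjustment. Of the hyaluronan genes CEMIP2, a hyaluronidase of the cell surface, was at 187, 196 and 245 CPM against 180.4 in macrophages. The matrix-degrading enzymes had medians of −0.08, −0.11 and 0.33 in chondrocytes, synoviocytes and macrophages, with 6, 5 and 8 higher and 7, 10 and 4 lower of 23, 23 and 21. Without ORC the first 2 medians were 0.031 and −0.017, and without PC that of macrophages was 0.15.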
